A study of Mus musculus with 2 samples.

Results

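The S100 genes described here were measured in neonatal mouse skin wounds. They are S100a8 and S100a9, S100a4, S100a6, S100a10, S100a11 and S100a13, and S100a14, S100a16 and S100a3. They were chosen by symbol, as S100 genes of leukocytes and skin, with earlier results of these data known, and all 10 were found among the 24346 gene symbols of the deposited tables. The samples were dorsal skin wounds of C57BL/6J pups that were cut at 1 day of age and harvested 24 h later, with 1 mRNA library from WT pups and 1 from PU.1-/- pups of the same litters. The Spi1 gene encodes PU.1, a DNA-binding factor that several white blood cell types need to develop. Pups without it are described as having no macrophages, neutrophils, T cells or mast cells. The deletion is a germline one, the number of pups behind each library is not given in the sources used here, and the methods describe incisional wounds where the design text says excisional. With 1 library per genotype there is no replicate check, so no p-value and no spread between animals can be given for any value.

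S100 proteins are small calcium-binding proteins that act as dimers. S100A8 and S100A9 pair to form calprotectin, which is stored at high concentration in the cytosol of neutrophils and monocytes, sequesters zinc and manganese from microbes, and signals through TLR4 and RAGE when released. Keratinocytes also make both proteins when skin is injured or inflamed. The other members are made by tissue cells, and at least S100A4 also by leukocytes. They bind annexins, cytoskeletal proteins and other partners. In whole wound tissue a lower mRNA value can come from fewer cells of a type or from less RNA per cell, and the 2 cannot be told apart.

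Values are given in FPKM, fragment numbers scaled to the length of the transcript and to the depth of the library, which allow levels of different genes to be compared per length. Ratios are PU.1-/- over WT with a floor of 0.1 FPKM, and the level kept is the PU.1-/- value as a percent of the WT value. The intervals in parentheses are exact binomial 95% intervals on estimated reads and cover counting error only. Estimated depths were 1.38e+07 (WT) and 1.58e+07 (PU.1-/-) fragments, which gave the members 338 to 26118 estimated reads in WT and 373 to 9679 in PU.1-/-. Spi1 itself stood at 35.4 FPKM in WT against 1.45 FPKM in PU.1-/-. Y-linked expression differed along with the genotype, since Uty, Kdm5d, Eif2s3y and Ddx3y had 2.16 to 38.5 FPKM in WT and were each listed at 0 in PU.1-/-, so that genotype and sex of the pups cannot be told apart. All 6 skeletal muscle markers had more FPKM in PU.1-/- than in WT, with a median log2 ratio of 0.95, and so did all 4 red blood cell markers, with a median of 1.10. The part of sex, muscle and blood content in the values below was not tested.

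S100a8 and S100a9 were the only members at least 2-fold lower in the PU.1-/- wound, and both were still among its 100 most abundant transcripts. S100a8 had 6600.4 FPKM in WT against 2129 FPKM in PU.1-/-. It was the 5th most abundant of all symbols in the WT library and the 53rd in the PU.1-/- library. S100a9 had 5311 FPKM in WT against 1516 FPKM in PU.1-/-, and went from 8th to 93rd. The log2 ratio was -1.63 (-1.67 to -1.60) for S100a8 and -1.81 (-1.85 to -1.77) for S100a9. In terms of the level kept, S100a8 stood at 32.3% (31.5 to 33.0) of WT and S100a9 at 28.5% (27.8 to 29.3), so the counting intervals of the pair did not overlap and S100a9 was proportionally the lower of them. Within a library, S100a8 was 1.24 times S100a9 in WT and 1.40 times S100a9 in PU.1-/-. In absolute terms these were the 2 largest drops among all symbols, 4471 FPKM for S100a8 and 3795 FPKM for S100a9, which together made up 88.0% of the drop summed over the 10 members.

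**Figure D1:**
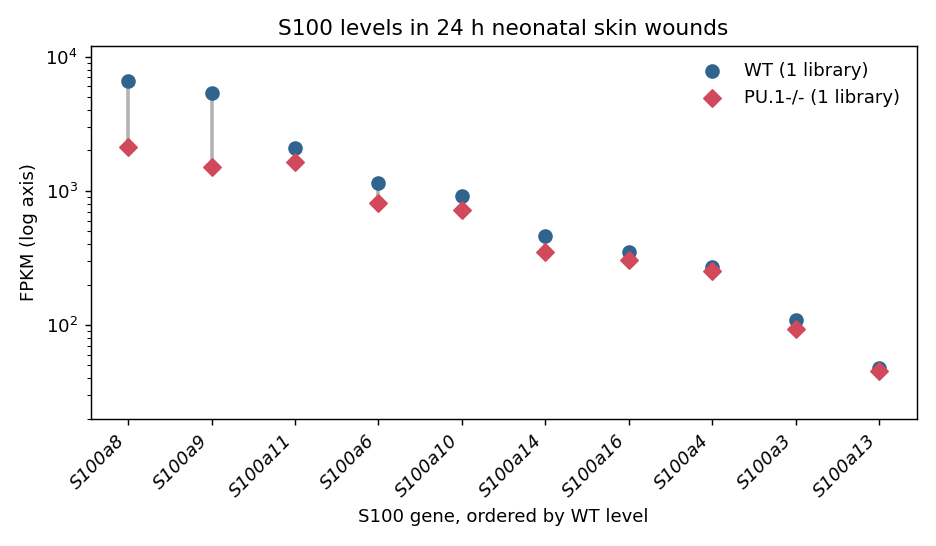
FPKM of each S100 gene (log axis) in the WT library (circles) and the PU.1-/- library (diamonds), 1 library each, with genes ordered by their WT level. S100a8 and S100a9 are far apart between the libraries, at 6600.4 against 2129 FPKM and 5311 against 1516 FPKM, while the markers of the other 8 genes lie close together.

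Of all symbols, 4.34% were at least 2-fold lower in the PU.1-/- library and 2.32% at least 2-fold higher, against 2 of 10 members lower and 0 higher. Because 9 of the members reached 100 FPKM in 1 or both libraries, the same was counted for the 963 symbols of that level, of which 4.67% were at least 2-fold lower and 1.25% higher, a background chosen after the values were seen. The same 2 members were lower at 1.5-fold and at 3-fold, where 7.67% and 2.8% of all symbols were. The count therefore rests on S100a8 and S100a9 alone. The members had a median log2 ratio of -0.34, beside -0.01 over the 16298 symbols detected at 0.1 FPKM in 1 or both libraries and -0.05 over the 963 abundant symbols. All 10 had a lower value in PU.1-/- than in WT at any fold, as did 51.1% of the symbols of 10 FPKM or more in both and 59.7% of the abundant symbols. The pair took 68.9% of the FPKM of the 10 members in WT and 46.2% in PU.1-/-, and 1.68% and 0.530% of all FPKM in the library.

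S100a8 and S100a9 lie next to each other on chromosome 3 (S100a8 from 90668978 to 90670035 on the plus strand, S100a9 from 90692632 to 90695721 on the minus strand, GENCODE on GRCm38, the assembly of mm10), with 22.6 kb between them. Their promoter windows are shown because the 2 genes fell together and the deleted factor binds DNA at purine-rich sites. Each window runs from 250 bases before to 50 bases after the RefSeq start of the gene, 5′ to 3′ on the strand of the gene (RefSeq, GRCm38.p6, chr3:90668821-90669120 on the plus strand for S100a8 and chr3:90695672-90695971 on the minus strand for S100a9). Capitals mark matches on either strand to the PU-box core GAGGAA or to TTNNGNAA, a loose form of the C/EBP site.
S100a8: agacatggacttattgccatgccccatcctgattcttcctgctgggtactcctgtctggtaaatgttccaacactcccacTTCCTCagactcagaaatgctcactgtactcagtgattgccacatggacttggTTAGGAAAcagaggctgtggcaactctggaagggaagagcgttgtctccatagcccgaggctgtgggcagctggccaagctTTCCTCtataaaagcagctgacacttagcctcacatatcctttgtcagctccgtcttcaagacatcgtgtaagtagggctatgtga
S100a9: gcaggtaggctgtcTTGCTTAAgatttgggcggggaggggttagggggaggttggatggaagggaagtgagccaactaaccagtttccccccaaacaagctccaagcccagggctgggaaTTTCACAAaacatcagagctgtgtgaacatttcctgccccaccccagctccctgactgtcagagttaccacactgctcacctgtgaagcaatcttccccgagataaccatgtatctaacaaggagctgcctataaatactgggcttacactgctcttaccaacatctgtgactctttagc
The S100a8 window held 2 matches to GAGGAA, both on the opposite strand, whose first bases are at -170 and -36 from the start, and 1 match to TTNNGNAA at -117. The RefSeq start of S100a8 lies inside the GENCODE span given above, and so does the match at -36. The S100a9 window held no match to GAGGAA and 2 matches to TTNNGNAA, at -236 and -130. No matches to the different motifs overlapped in these windows, although the letters allow it. Of 32851 windows of all genes, 28.3% held GAGGAA and 40.7% held TTNNGNAA. Windows were at hand for 8 members (12 windows, since S100a3 and S100a16 have several), not for S100a10 and S100a14. Among those 8, GAGGAA was found in S100a8, S100a3, S100a4, S100a11 and S100a16, and TTNNGNAA in S100a8, S100a9 and S100a3. Counted by window, as for all genes, 5 of the 12 member windows held GAGGAA and 4 held TTNNGNAA. The AP-1 site TGANTCA was present in windows of S100a11 and S100a16 and in 7.81% of all windows. A match of letters is a description and does not show that a factor binds there.

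The members bound mainly to annexins and the cytoskeleton were lower by less than 2-fold. S100a11, whose protein binds ANXA1, was the most abundant of them, with 2067 FPKM in WT against 1646 FPKM in PU.1-/-, or 79.6% (77.3 to 82.1) of WT. S100a6, also called calcyclin, had 1145 FPKM in WT against 816 FPKM in PU.1-/-, or 71.3% (69.0 to 73.6), the lowest level kept among the 8 members other than S100a8 and S100a9. For S100a10, the partner of annexin A2 at the cell membrane, the values were 919 and 724 FPKM, or 78.7% (75.9 to 81.6). These 3 genes had counting intervals below the WT level.

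S100a4, a protein of fibroblasts and leukocytes that binds non-muscle myosin, had 268 FPKM in WT against 255 FPKM in PU.1-/-, or 94.9% (87.5 to 103). S100a13, which takes part in the non-classical release of FGF1 and IL1A, was the lowest member, at 47.5 and 45.6 FPKM, or 96.0% (82.7 to 112). For these 2 members the counting interval spanned the WT level, so that no difference was detectable at this depth. The 5 members of this broad group kept 78.4% of their summed FPKM.

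The members of the epidermis and hair were also lower by less than 2-fold. S100a14, an epithelial S100 protein, had 460.0 FPKM in WT against 353 FPKM in PU.1-/-, or 76.7% (73.8 to 79.7). S100a16, which is widespread in epithelia, had 348 and 304 FPKM, or 87.4% (83.9 to 91.2). S100a3, a cysteine-rich protein of the hair cuticle, had 109.5 and 93.9 FPKM, or 85.7% (77.4 to 94.8). Counting intervals of all 3 lay below the WT level. Over the 8 members other than S100a8 and S100a9, the log2 ratio ranged from -0.49 for S100a6 to -0.06 for S100a13 with a median of -0.28, and their sum was 5365 FPKM in WT against 4237 FPKM in PU.1-/-, or 79.0% of WT. The gap between S100a8, the higher of the calprotectin pair at 32.3% kept, and S100a6, the lowest of the rest at 71.3%, was wider than the whole range of the other 8 members.

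All 10 members lie on chromosome 3. S100a8, S100a9 and 6 more of them stand with 4 other S100 genes in a stretch of 185 kb (90511034 to 90695721), and S100a11 and S100a10 stand 2825 kb farther on (93520488 to 93564643). Along the first stretch the order is S100a1, S100a13, S100a14, S100a16, S100a3, S100a2, S100a4, S100a5, S100a6, S100a7a, S100a8 and S100a9. S100a7a, a keratinocyte S100 gene and the nearest upstream neighbour of S100a8, had 29.1 FPKM in WT against 12.2 FPKM in PU.1-/-, or 42.1% (35.5 to 49.8) of WT, and was thus also at least 2-fold lower. S100a6, the next gene before it, was at 71.3%. The genes at least 2-fold lower were therefore 3 neighbours at one end of the stretch. S100a1, at the other end, had 57.3 and 40.8 FPKM, or 71.2% (61.2 to 83.1), and its start lies 0.043 kb from that of S100a13 on the opposite strand. S100a2 was listed at 0 in both libraries, and S100a5 at 0 and 0.576 FPKM, a value in PU.1-/- that stands for 2.12 estimated reads. Of the 7 other S100 genes listed, 5 reached 0.1 FPKM in a library, and among them S100a7a was at least 2-fold lower and S100a5, on those few reads, at least 2-fold higher. The span of S100a3 overlaps that of S100a2 on the same strand, and the spans of S100a3 and S100a4 both overlap that of Gm42674 on the same strand, a symbol that the tables do not list. The annotation also holds a pseudogene of S100a11, S100a11-ps on chromosome 12. Whether reads were divided between these genes was not tested.

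**Figure D2:**
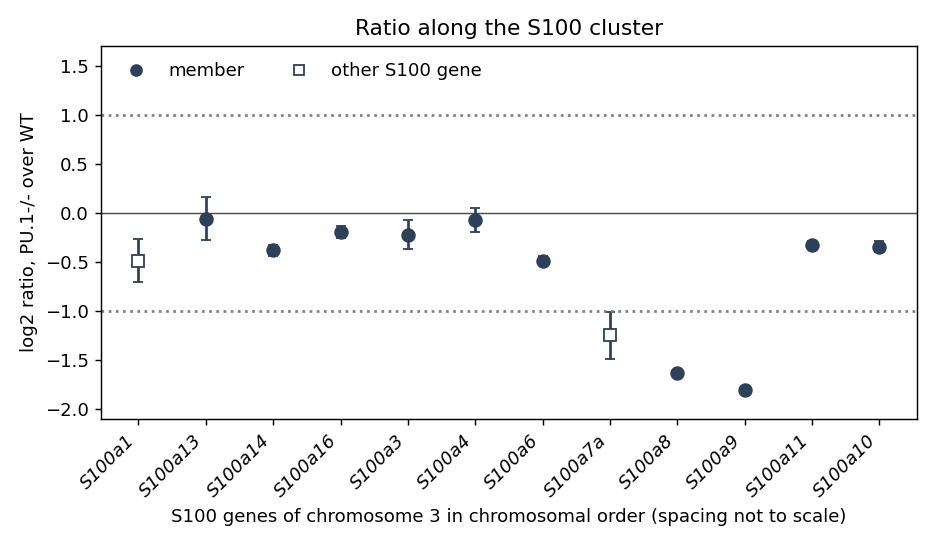
Log2 ratio of PU.1-/- over WT for the S100 genes of chromosome 3 that reached 1 FPKM in a library, in chromosomal order with spacing not to scale; filled circles are the 10 members, open squares are other S100 genes, bars are 95% counting intervals and dotted lines mark 2-fold. S100a7a, S100a8 and S100a9 lie below the lower line at -1.25, -1.63 and -1.81, and the others lie between -0.49 and -0.06.

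Markers of leukocytes in general, of macrophages and of mast cells fell much further than S100a8 and S100a9. All 8 markers of leukocytes in general were at least 2-fold lower, with a summed level of 263 FPKM in WT against 4.38 FPKM in PU.1-/-, or 1.67% of WT. Ptprc (CD45) had 5.77 FPKM and Coro1a, a leukocyte actin regulator, 53.2 FPKM in WT, and both were listed at 0 in PU.1-/-. The 10 macrophage markers were all lower and kept 0.783% of their sum (733 and 5.74 FPKM), with Tyrobp, C1qa and C1qb listed at 0. The 6 mast cell markers were all lower and kept 1.16% of their sum (728 and 8.43 FPKM), with Cma1, a mast cell chymase, at 223 and 0.436 FPKM. None of these 24 genes kept as large a share as S100a9, the largest being 13.8% for Hdc, the histamine-forming enzyme.

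Neutrophil markers were less uniform. Of the 11 listed, 9 were at least 2-fold lower, 6 were listed at 0 in PU.1-/-, and the sum went from 727 to 31.3 FPKM, or 4.30% of WT. Ngp and Ltf, proteins of neutrophil granules, had 311 and 37.1 FPKM in WT and were listed at 0 in PU.1-/-. Camp, the cathelicidin that both neutrophils and keratinocytes can make, had 77.6 and 23.9 FPKM, or 30.8% (26.3 to 36.2), an interval that holds the values of S100a8 and S100a9. The other markers that kept more than S100a9, singled out after their values were seen, were Cxcr2, a chemokine receptor, at 11.2 and 7.17 FPKM, or 63.8% (55.1 to 73.8), and Mpo, the granule peroxidase, at 0.185 and 0.0805 FPKM, which stand for 6.51 and 3.25 estimated reads. The median log2 ratio of the list was -7.85, against -1.63 for S100a8 and -1.81 for S100a9.

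No marker of keratinocytes was 2-fold lower or higher, but several differed from WT by as much as the 8 members other than S100a8 and S100a9 did. None of the 8 genes of wound-edge keratinocytes passed 2-fold in either direction, and their sum was 11909 FPKM in WT against 12095 FPKM in PU.1-/-. Their median log2 ratio was -0.20, with 5 genes below WT and 3 above. The 3 above were Krt6a, Krt6b and Krt16, keratins that keratinocytes switch on after injury. They had 1866, 1921 and 3297 FPKM in WT against 1888, 2304 and 3978 FPKM in PU.1-/-. Krt17, the next keratin of the list, was at 92.6% (90.8 to 94.5) of WT. S100a8 was 3.44 times Krt6b per length in WT and 0.924 times Krt6b in PU.1-/-. The small proline-rich genes of the list were below WT, Sprr1a at 76.8% (75.0 to 78.7) and Sprr2h at 66.8% (61.8 to 72.3), values within the range of the 8 members other than S100a8 and S100a9 for the first and just under it for the second.

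The 6 basal keratinocyte markers had a median log2 ratio of 0.23 and the 7 suprabasal markers one of 0.08, with none of either list past 2-fold. All 6 basal markers were above WT, at 104.7% to 152.6% of it, and the suprabasal ones ranged from 88.9% to 137.1%. Krt5 and Krt14, the keratins of the basal layer, were at 1216 and 4659 FPKM in WT against 1273 and 5195 FPKM in PU.1-/-. The farthest from WT were Krt15, another basal keratin, at 152.6% (143.2 to 162.4), Col17a1, a hemidesmosome collagen, at 137.8% (133.2 to 142.6), Lor (loricrin), of the cornified envelope, at 137.1% (133.9 to 140.4), and Krt1, a suprabasal keratin, at 132.1% (130.5 to 133.7), named after their values were seen. The 9 markers of the hair shaft and its inner sheath were all below WT, with a median of -0.36 and none past 2-fold, and Krt25 had 316 and 227 FPKM. S100a3, the hair cuticle member, had a log2 ratio of -0.22. Fibroblast markers (10 genes, median 0.14) and endothelial markers (6 genes, median 0.16) also had none past 2-fold. On the log2 scale S100a8 and S100a9 were thus lower than every marker of these tissue lists. They were higher than every marker of the general leukocyte, macrophage and mast cell lists. In the neutrophil list Camp (-1.70) lay between them, and Cxcr2 (-0.65) and Mpo (-0.89, on few reads) lay above both. How much of the remaining 2129 and 1516 FPKM came from which cells cannot be told apart in whole tissue with 1 library per genotype.

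**Figure D3:**
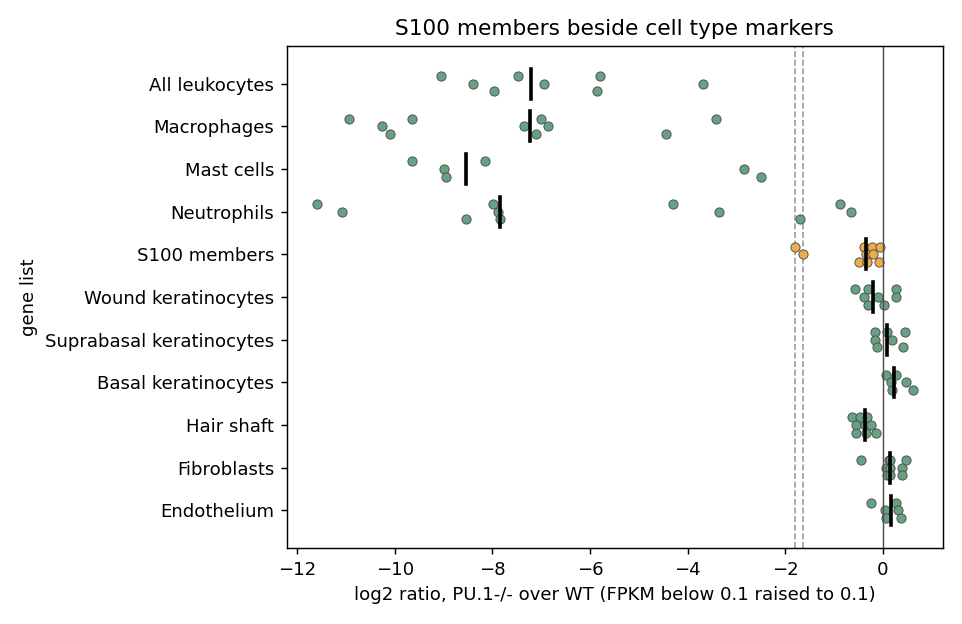
Log2 ratio of PU.1-/- over WT for each gene (points) of the S100 members and of 10 lists of cell type markers, with the list medians as black bars and the values of S100a8 (-1.63) and S100a9 (-1.81) as dashed lines; values were floored at 0.1 FPKM, so genes listed at 0 are drawn at less than their full drop. The 2 genes sit between the medians of the leukocyte lists, from -8.55 to -7.21, and those of the tissue lists, from -0.36 to 0.23. In the neutrophil list Camp lies between the 2 genes, and Cxcr2 and Mpo lie above both.

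Genes that receive or bind S100 proteins were then examined. Among 7 genes for receptors, 1 was at least 2-fold lower. This was Tlr4, the receptor of calprotectin and of bacterial lipopolysaccharide, with 8.41 FPKM in WT against 3.12 FPKM in PU.1-/-, or 37.1% (31.2 to 44.1). Its co-receptor Ly96 (MD-2) had 13.5 and 10.8 FPKM, or 79.9% (57.2 to 110.4), so no difference was detectable at this depth. Ager, the gene of RAGE, was low in both libraries at 1.35 and 1.01 FPKM, or 75.2% (38.0 to 137), so no difference was detectable for it either. Bsg (basigin) and Nptn (neuroplastin), membrane proteins that bind S100A9 and S100A8, were at 102.5% (98.6 to 106.6) and 91.5% (85.6 to 97.7). None of the 9 intracellular partners passed 2-fold in either direction, and 5 were below WT and 4 above. Those above were Anxa6, Anxa11, Ahnak and Sytl1, at 110.1% to 123.1% of WT, each with a counting interval above the WT level. Anxa2, the partner of S100A10, had 1534 and 1382 FPKM, or 90.1% (88.6 to 91.6), and Anxa1, which binds S100A11, had 1038 and 822 FPKM, or 79.1% (77.6 to 80.7). The level kept by Anxa1 lay inside the interval of S100a11, while that of Anxa2 lay above the interval of S100a10.

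The symbols whose ratio was most like that of S100a8, among the 902 others with at least 100 FPKM in WT, were Cfd (complement factor D, 32.1% kept), Hmox1 (heme oxygenase 1, 31.3%), Plaur (urokinase receptor, 35.5%), Thbs1 (thrombospondin 1, 38.1%) and Cxcl2 (a chemokine for neutrophils, 26.9%). Their log2 ratios were 0.01 to 0.26 away from that of S100a8. For S100a9 the nearest were Cxcl2, Hmox1, Cfd, Cyba (a subunit of the NADPH oxidase, 25.3%) and Snord22 (a small nucleolar RNA gene, 24.9%), 0.08 to 0.20 away. Likeness here is a single ratio over 2 libraries, and no counting intervals were worked out for these symbols.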

How the data were processed

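The FPKM values were deposited by the authors for 1 WT and 1 PU.1-/- library. They prepared stranded mRNA libraries, read them as single ends, mapped them to mm10 and ran Cuffnorm 2.2.1. The submitters' processing notes name TopHat2 2.1.1, Bowtie2 2.2.8, SAMtools 0.1.18 and Cuffdiff 2.2.1. Neither the annotation nor the scaling between libraries is named in the sources used here. FPKM divides by an effective length, which is small in short genes such as these, so absolute levels depend on it more than ratios do. The deposited values hold no read counts.

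Each ratio was PU.1-/- over WT after raising values below 0.1 to this floor, and a 2-fold difference was counted as lower or higher. Depth was estimated from the steps of low values, using GENCODE transcript lengths less 200 nt, in genes with 1 transcript of over 1000 nt. Reads of each gene were then estimated from this depth and its own length less 200 nt. The members were as short as 486 nt (S100a8), so their reads and intervals depend on the assumed fragment length of 200 nt. Of 1575 low WT values and 1525 low PU.1-/- values, 65.2% and 66.8% came out within 0.05 of a whole read. Simulated libraries of 21587 genes held counting error only, and the genes scored in them had at least 10 FPKM in WT. All 100 genes set 4-fold lower and all 100 set 4-fold higher passed the 2-fold rule, as did 1 of 6490 unchanged genes. The simulation covers neither differences between animals nor genes of lower level, so it gives no error rate for the real comparison. The members and the lists (other S100 genes, receptors, binding partners, S100 fused type genes, markers of leukocytes, neutrophils, macrophages, mast cells, keratinocytes, hair shaft, fibroblasts, endothelium, muscle and red blood cells) were chosen with earlier results of these data known. The genes named were the members, Spi1, genes of these lists, and the 5 symbols nearest in ratio to S100a8 and to S100a9. Some list genes were named in the written order, and others out of it, in part after their values were seen. The Y-linked genes were added after their values were seen. Other floors, a pseudocount, scalings, a filter and fold thresholds were tried. Calculations used scipy 1.17.1, numpy 2.4.6, pandas 2.3.3 and matplotlib 3.10.9 under Python 3.11.15.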

Additional observations from a re-analysis of the deposited data

How the results depend on the processing

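No paired analysis was possible because each genotype had 1 library, and no library could be left out for the same reason. The count of 2 lower and 0 higher members was the same with low values raised to 1 FPKM, with a pseudocount of 1 FPKM, under the 3 rescalings, with a filter at 5 FPKM and at fold thresholds of 1.5 and 3. With both libraries rescaled to the same FPKM sum, the log2 ratio of S100a8 was -1.59 and that of S100a9 -1.76. With the basal keratinocyte markers set to a median of 0, a shift of -0.23 for every gene, they were -1.86 and -2.04, the median of the members was -0.57, and the count of lower S100 fused type genes went from 0 to 1 (Crnn). The 10 members were below the WT level in all 50 values of the 5 alternative scalings and floors, but S100a13 came as near as -0.01 and S100a4 as near as -0.03. The number of lower genes in the other lists stayed within 1.5 times of the reported one under the other floor, the pseudocount, the 3 rescalings and the filter. Fold thresholds were not varied for these lists, and at 3-fold neither Tlr4 (2.70-fold lower) nor S100a7a (2.38-fold lower) would count, while at 1.5-fold Krt85 (1.56-fold lower), Cxcr2 (1.57-fold), Crnn (1.83-fold) and Mpo would be added. Differences between animals cannot be measured, and the counting intervals do not hold them.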

Other observations

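The S100 fused type genes, which encode large proteins of the cornifying epidermis that begin with an S100 domain and lie between the 2 stretches of S100 genes, showed no 2-fold difference in any of the 6 that were listed. Rptn (repetin) had 113 FPKM in WT against 173 FPKM in PU.1-/-, Hrnr (hornerin) 44.0 and 61.1 FPKM, and Flg2 (filaggrin-2) 15.3 and 21.4 FPKM, so that all 3 were higher in PU.1-/- beyond counting error. Tchh (trichohyalin), a protein of the inner root sheath and the medulla of hair, had 95.3 and 74.4 FPKM, or 78.1% (75.5 to 80.7), and Crnn (cornulin) had 6.82 and 3.72 FPKM, or 54.6% (41.0 to 72.2). Of the S100 genes on other chromosomes, S100b, a marker of glia and melanocytes, had 0.348 and 0.606 FPKM, S100g 0.542 and 0.708 FPKM, and S100z was listed at 0 in both libraries. Their intervals spanned the WT level or could not be set.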
